A study of Mus musculus with 20 samples.

Results

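The 8 acute phase protein genes Saa3, Hp, Lcn2, C3, Orm1, Serpina3n, Steap4 and Il1rn were examined for C/EBPβ binding in the mouse preadipocyte line 3T3-L1. Every deposited C/EBPβ peak whose midpoint lay inside the mm10 span of one of these genes, or within 50 kb of it, was taken, and peaks that overlapped by at least 1 bp were merged into sites. This gave 69 peaks in 23 sites for 8 of 21887 protein-coding genes, out of 23854 sites in the genome. Binding was measured by chromatin immunoprecipitation and sequencing (ChIP-seq) with an antibody to C/EBPβ. In every group the cells held an added C/EBPβ gene under doxycycline control, for the activating LAP isoform with an HA tag, either wild type (WT) or mutated at its PARylation sites (Mut). PARylation is the addition of poly(ADP-ribose) by PARP enzymes.

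The cells stood 2 days under contact inhibition and then received vehicle (uninduced WT and uninduced mutant, drawn as WT -Dox and Mut -Dox) or 1 µg/ml doxycycline for 8 h (induced WT and induced mutant, drawn as WT +Dox and Mut +Dox). A further set of WT cells was given BYK204165, a PARP inhibitor, 1 h before doxycycline (the inhibitor list, drawn as WT +Dox +BYK). Each of the 5 conditions had 2 ChIP and 2 input libraries, but the data used here are 1 peak list per condition without replicate numbers. Differences between lists therefore have no replicate check and no test, and the depth behind each list is unknown. The lists held 6898 to 18371 peaks, fewest in the uninduced mutant and most with the inhibitor, so a gene can have more sites in a longer list whatever its own binding. Whether the inducible cells were a clone or a pool, and which promoter drove the transgene beyond its doxycycline control, is not given in the sources used here. The antibody also sees the cells' own C/EBPβ, so a peak cannot be assigned to the induced protein.

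Acute phase proteins are secreted or induced when tissue meets infection or injury, chiefly under interleukin 1 and interleukin 6. C/EBPβ is also known as the nuclear factor for interleukin 6, and it binds the promoters of many such genes in liver, commonly together with NF-κB and STAT3. Fat cells and their precursors also make several of these proteins, serum amyloid A, haptoglobin and lipocalin 2 among them. C/EBP proteins bind as dimers to a short, nearly palindromic DNA element.

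The promoter sequences are shown first, since 4 of these genes carried a peak directly over a listed start site. The 250 bases upstream of the start site are printed 5′ to 3′ on the strand of the gene, from RefSeq on GRCm38.p6, the coordinates of mm10. Capitals mark matches to the C/EBP element TTGCNNAA on either strand. Of the 8 genes, 6 had an entry; Hp and Orm1 had none. The first group holds genes whose start site lay under a peak of at least 1 list: C3 (chr17:57228137-57228386, minus strand), Steap4 (chr5:7960222-7960471, plus strand), Lcn2 (chr2:32387740-32387989, minus strand) and Saa3 (chr7:46715677-46715926, minus strand). Orm2 (chr4:63362199-63362448, plus strand), the neighbour of Orm1 that shares its second site, is added and was chosen after its peak was seen.
C3: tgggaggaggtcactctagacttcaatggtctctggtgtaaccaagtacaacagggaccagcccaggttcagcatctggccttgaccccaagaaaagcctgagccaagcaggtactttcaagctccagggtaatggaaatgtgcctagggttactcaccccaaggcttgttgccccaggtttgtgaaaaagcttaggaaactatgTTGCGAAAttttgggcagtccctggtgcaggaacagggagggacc
Steap4: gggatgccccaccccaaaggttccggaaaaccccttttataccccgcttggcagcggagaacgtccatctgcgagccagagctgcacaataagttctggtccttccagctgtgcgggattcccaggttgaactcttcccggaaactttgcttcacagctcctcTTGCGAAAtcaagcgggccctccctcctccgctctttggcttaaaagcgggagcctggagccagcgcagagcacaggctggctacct
Lcn2: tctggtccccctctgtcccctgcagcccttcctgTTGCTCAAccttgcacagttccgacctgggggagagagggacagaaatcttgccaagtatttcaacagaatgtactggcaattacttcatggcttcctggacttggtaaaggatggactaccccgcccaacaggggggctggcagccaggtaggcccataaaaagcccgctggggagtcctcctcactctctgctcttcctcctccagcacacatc
Saa3: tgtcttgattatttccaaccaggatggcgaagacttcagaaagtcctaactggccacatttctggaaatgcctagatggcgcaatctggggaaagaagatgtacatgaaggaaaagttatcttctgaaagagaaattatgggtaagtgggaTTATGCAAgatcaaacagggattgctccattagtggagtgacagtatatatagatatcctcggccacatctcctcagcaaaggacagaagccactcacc
Orm2: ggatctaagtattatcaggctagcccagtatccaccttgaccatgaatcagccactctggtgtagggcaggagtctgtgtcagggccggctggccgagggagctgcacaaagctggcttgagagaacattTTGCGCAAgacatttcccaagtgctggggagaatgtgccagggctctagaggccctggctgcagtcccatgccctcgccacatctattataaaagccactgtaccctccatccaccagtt

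Each of these 5 promoters held 1 match. Counting bases back from the start site, the first base of the match stood at -45 in C3, -87 in Steap4, -216 in Lcn2, -99 in Saa3 and -120 in Orm2. C3 and Steap4 had the same 8 letters, TTGCGAAA, and Lcn2 had TTGCTCAA. In Saa3 the match was on the opposite strand, as TTGCATAA. Orm2 held the full palindrome TTGCGCAA. The centre of the match lay 8 bp from the midpoint of the merged site in Saa3 and in Lcn2, 61 bp in Steap4 and 138 bp in C3. The deposited lists give no summits, so midpoints stand in for them.

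The genes whose start sites lay under no peak are shown for contrast: Serpina3n (chr12:104406458-104406707, plus strand) and the first of 3 listed start sites of Il1rn (chr2:24336610-24336859, plus strand).
Serpina3n: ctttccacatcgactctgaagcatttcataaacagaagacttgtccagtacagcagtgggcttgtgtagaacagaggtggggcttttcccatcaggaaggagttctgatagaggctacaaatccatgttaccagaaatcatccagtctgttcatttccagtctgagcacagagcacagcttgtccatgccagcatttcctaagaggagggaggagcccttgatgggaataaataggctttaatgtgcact
Il1rn: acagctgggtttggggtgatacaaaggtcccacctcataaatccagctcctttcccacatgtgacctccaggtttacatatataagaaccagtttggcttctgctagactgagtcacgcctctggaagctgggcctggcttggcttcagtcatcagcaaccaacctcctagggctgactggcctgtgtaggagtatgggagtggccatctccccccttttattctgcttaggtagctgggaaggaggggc

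Neither held a match, and the other start sites of Il1rn held none either. So 4 of 4 member genes with a peak over a listed start site had the element, and 0 of 4 listed start sites without a peak did. Of these start sites without a peak, 3 belong to Il1rn, and its windows 2 and 3 overlap. Over all 32851 listed start sites, 5.78% lay under a peak of any list. Of all start sites, 9.56% had a TTGCNNAA match in the same 250 bases. It was found at 21.8% of those under a peak and at 8.81% of those under none. With so low a share, 0 of 4 is no contrast by itself. The palindrome, a special case of TTGCNNAA, was found at 0.164% of all start sites and at 2.00% of those under a peak. The AP-1 element TGANTCA was found in Il1rn alone among the members (141 bases upstream) and in 6.75% of all start sites. The STAT element TTCNNNGAA (116 bases upstream) and 2 matches to the NF-κB consensus (226 and 250 bases upstream) were found in Steap4 alone, against 7.02% and 3.90% of all start sites. Both strands were searched for each element, and none of the matches in a member overlapped a match of another element. These are matches of letters only, and no match says only that the letters are not in this window.

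Most members had a peak over an end of the gene span. It was found in at least 1 list at 6 of the 8 genes (Saa3, Hp, Lcn2, C3, Orm1 and Steap4), where 7.22% of all protein-coding genes had one. Among genes with any site within 50 kb, the figures were 6 of 7 members and 11.8% of all. In all 5 lists an end was covered at 4 members, Saa3, Hp, C3 and Steap4, and at 1.85% of all genes. By list, the count of members was 5 in uninduced WT (3.44% of all genes), 4 in the uninduced mutant (2.49%), 6 in induced WT (4.22%), 5 in the induced mutant (4.95%) and 6 with the inhibitor (5.14%). This measure was chosen after the peaks were seen, so it describes these genes and is no test. For C3, Lcn2 and Steap4 the covered end was the listed start site.

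**Figure D1:**
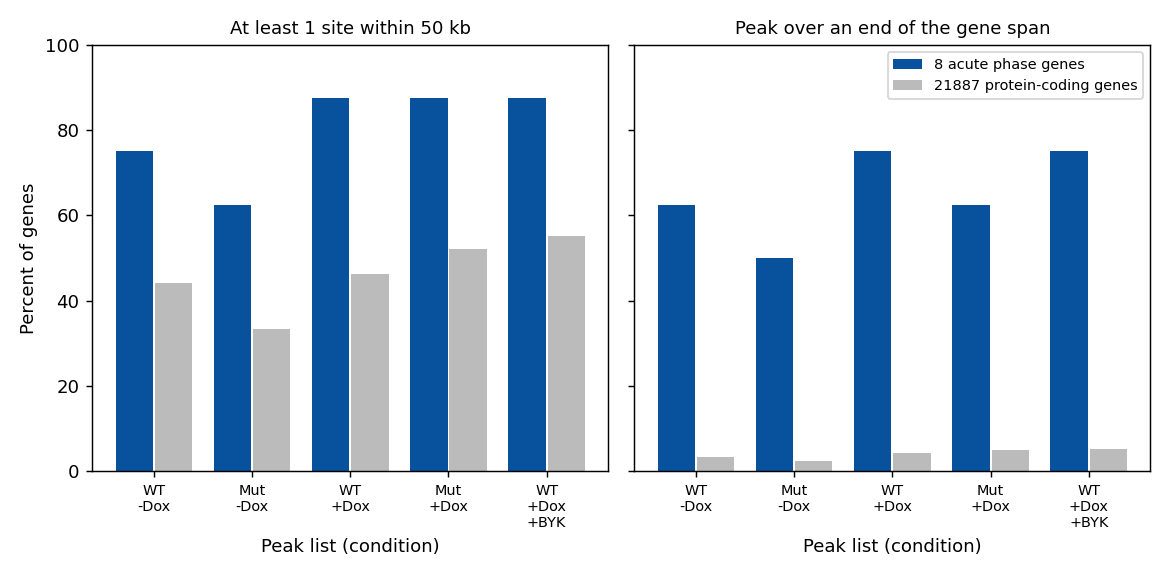
Percent of genes (vertical axis) with at least 1 C/EBPβ site within 50 kb (left) and with a peak over an end of the gene span (right) in each of the 5 peak lists; blue bars are the 8 acute phase genes and grey bars all 21887 protein-coding genes. The blue bars stand between 62.5% and 87.5% on the left and between 50.0% and 75.0% on the right, where the grey bars stay at or below 5.14%.

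With any site within 50 kb, 7 of 8 members stood against 61.0% of all genes. The counts were 6 members in uninduced WT (44.1% of all genes), 5 in the uninduced mutant (33.3%), and 7 each in induced WT (46.3%), the induced mutant (52.2%) and the inhibitor list (55.1%). Serpina3n was the member without a site in any list. Summed over the genes, there were 13 sites in uninduced WT, 7 in the uninduced mutant, 16 in induced WT, 12 in the induced mutant and 21 with the inhibitor. The order of the 3 induced lists differed from that of their lengths, since the induced mutant held 17772 sites in all and induced WT 12283.

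**Figure D2:**
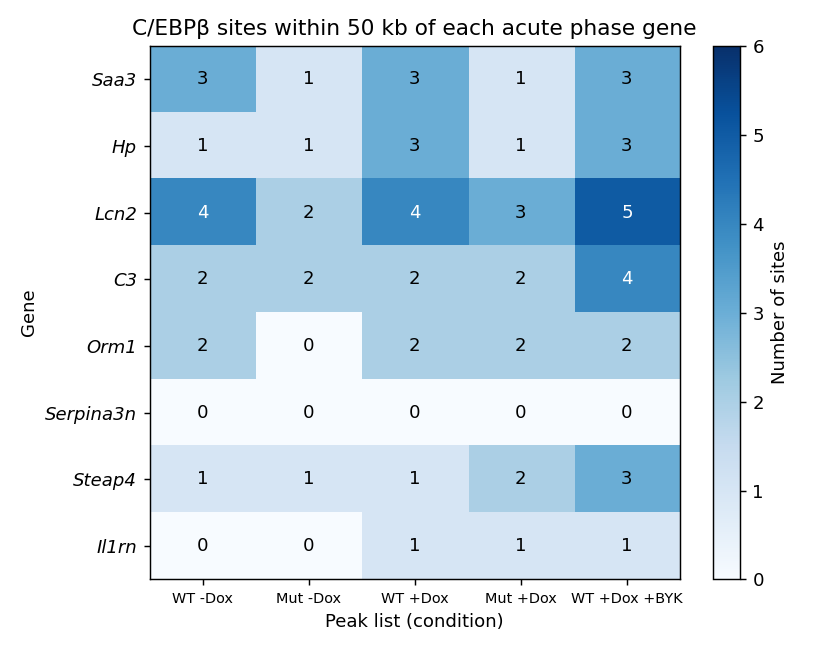
Number of C/EBPβ sites within 50 kb (printed in each cell and shown by colour) for each acute phase gene (rows) in each peak list (columns). Under WT +Dox, Saa3 and Hp show 3 sites, and under Mut +Dox they show 1, Orm1 shows 0 in Mut -Dox alone, and Serpina3n shows 0 throughout.

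**Figure D3:**
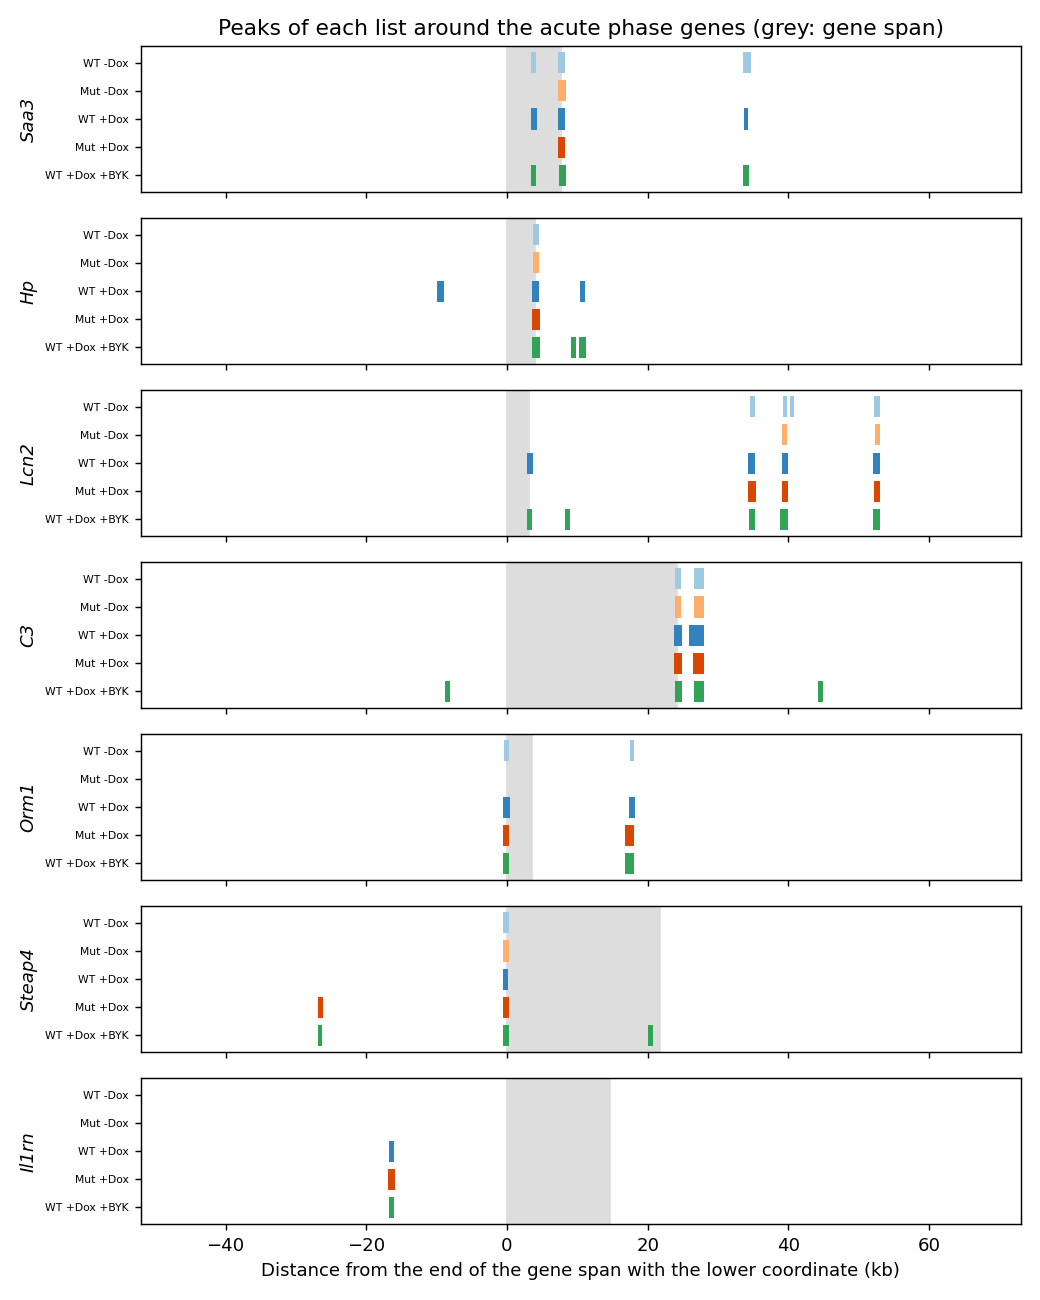
Position of every peak around the 7 genes with a site, in kb from the end of the gene span with the lower coordinate; the grey band is the gene span, each coloured bar a peak drawn to its width, and each row a peak list. Peaks stack over an end of the grey band at Saa3, Hp, Lcn2, C3, Orm1 and Steap4, while the single site of Il1rn lies 16.4 kb outside its span and is empty in both uninduced lists.

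Saa3 encodes a serum amyloid A protein, a lipoprotein-associated acute phase protein that is made mainly outside the liver. Its span (chromosome 7, 46711998 to 46719615) had 3 sites. The authors' score of each peak is given below with the percent of peaks of the same list that scored lower; the scale of the score is not named in the files, its lowest value is 50.00 to 50.03 in every list, and scores are compared within a list only. The site over the upper end of the span (46719247 to 46720370) had a peak in all 5 lists. It scored 546 in uninduced WT (above 96.5% of that list), 162 in the uninduced mutant (70.7%), 376 in induced WT (93.7%), 332 in the induced mutant (87.7%) and 720 with the inhibitor (97.9%). It thus stood above 70.7% or more of the peaks of each list, and its midpoint lay 4.13 kb upstream of the listed start site.

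The site over the listed start site of Saa3 (46715354 to 46716204) carried the printed element. It had a peak in the WT line only: 202.50 in uninduced WT (78.1%), 67.8 in induced WT (25.1%) and 63.5 with the inhibitor (18.8%). Another site (46745600 to 46746680), 26.5 kb above the span and 2.96 kb from Saa1, showed the same lists, at 129.50, 50.2 and 74.0. The score of 50.2 was near the lowest in its list, with 0.234% of peaks below it. Both sites were thus found in the 3 WT lists and in neither mutant list, a pattern of 0.897% of all sites. The 3 Saa3 sites also lie within 50 kb of Saa1, Saa2 and Saa4, so they cannot be given to Saa3 alone.

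Hp encodes haptoglobin, which binds free haemoglobin. Its span (chromosome 8, 109575128 to 109579172) had 4 sites. The site over its upper end (109578731 to 109579870) had a peak in all 5 lists, at 187 in uninduced WT (75.5%), 51.1 in the uninduced mutant (2.07%), 296 in induced WT (89.8%), 537 in the induced mutant (95.5%) and 671 with the inhibitor (97.5%). It stood near the bottom of the uninduced mutant list and above 75.5% or more of the others. The remaining 3 sites scored lower. One inside the neighbour Dhx38, 9.49 kb below Hp, scored 51.2 in induced WT alone. Another, 6.70 kb above the span, scored 80.7 in induced WT and 124 with the inhibitor, and the last, 5.40 kb above it, scored 68.8 with the inhibitor alone.

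Lcn2 encodes lipocalin 2, which binds bacterial iron carriers. Its span (chromosome 2, 32384637 to 32387739) had 6 sites, the most of any member. Its start site lay under a peak (32387517 to 32388370) in induced WT, at 66.1 (23.2%), and with the inhibitor, at 132 (60.2%), and in no other list. Of all sites, 2.29% had a peak in these 2 lists alone. A site 5.49 kb upstream, nearer to Ptges2, scored 81.6 with the inhibitor alone.

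The other 4 Lcn2 sites lay 31.7 to 49.4 kb upstream, inside Slc25a25, a mitochondrial carrier gene, which is their nearest gene. The farthest of them (32436664 to 32437693) scored 60.2 in uninduced WT (16.1%), 56.0 in the uninduced mutant (10.1%), 273 in induced WT (88.1%), 313 in the induced mutant (86.5%) and 385 with the inhibitor (91.1%). It stood low in both uninduced lists and high in all 3 induced ones. The site at 32423429 to 32424653 had a peak in all 5 lists and stood above 67.2% to 83.4% of each. The site at 32418875 to 32419996 lacked a peak only in the uninduced mutant, as 9.51% of all sites did. A neighbour at 32424833 to 32425455 had one in uninduced WT alone, at 51.9, as 2.8% of all sites did. When a site counted only for the closest gene, Lcn2 had 1, its start site, in induced WT and the inhibitor list.

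C3 encodes the central component of complement. Its span (chromosome 17, 57203967 to 57228136) had 4 sites, and 2 of them had a peak in all 5 lists. The site over the start (57227714 to 57228916) scored 368 in uninduced WT (91.7%), 106 in the uninduced mutant (52.8%), 141 in induced WT (67.0%), 95.1 in the induced mutant (44.1%) and 588 with the inhibitor (96.5%). It stood higher within each WT list than within either mutant list. The site 2.81 kb upstream (57229899 to 57232002) stood near the top of every list, above 98.2%, 95.3%, 90.3%, 98.9% and 98.9% in the same order. It ranked 190th of 17816 peaks in the induced mutant and 211th of 18371 with the inhibitor. Trip10 lies slightly closer to it, at 2.27 kb. The other 2 sites of C3, at 74.9 and 61.4, were found with the inhibitor alone.

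Orm1 encodes orosomucoid, a plasma glycoprotein that carries drugs and lipids. Its span (chromosome 4, 63344556 to 63348163) had 2 sites, both lacking a peak only in the uninduced mutant. The site over its lower end (63343967 to 63344955) scored 147 in uninduced WT (66.6%), 130 in induced WT (63.7%), 207 in the induced mutant (76.0%) and 342 with the inhibitor (88.9%). The site at 63361312 to 63362763, 13.9 kb above the span, covered the start site of Orm2 and scored 117, 101, 115 and 77.3 in the same order. So Orm1 and Orm2, with Orm3 between them, each had a peak over an end of the span in the same 4 lists. Of the member sites, 13% lacked a peak only in the uninduced mutant, an Lcn2 site included, against 9.51% of all sites.

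Steap4 encodes a metalloreductase that reduces iron and copper and is induced by inflammatory cytokines. Its span (chromosome 5, 7960472 to 7982213) had 3 sites and no other protein-coding gene within 50 kb of them. The site over the start (7959853 to 7960804) had a peak in all 5 lists, at 148 in uninduced WT (66.7%), 84.3 in the uninduced mutant (40.6%), 102 in induced WT (51.3%), 106 in the induced mutant (49.8%) and 153 with the inhibitor (65.9%). It stood near the middle of every list. A site 26.5 kb upstream had low scores of 53.5 in the induced mutant and 58.5 with the inhibitor, and a site inside the gene scored 64.2 with the inhibitor alone.

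Il1rn encodes the interleukin 1 receptor antagonist, a secreted inhibitor of that cytokine. Its span (chromosome 2, 24336860 to 24351491) had 1 site (24320005 to 24320920), 16.4 kb upstream, with no peak in either uninduced list. It scored 137 in induced WT (65.7%), 431 in the induced mutant (92.6%) and 225 with the inhibitor (78.9%). Of all sites, 10.1% had this pattern of all 3 induced lists and no uninduced list. Serpina3n, which encodes a serine protease inhibitor of the antichymotrypsin group (chromosome 12, 104406646 to 104414334), had no peak within 50 kb; the nearest one lay 192 kb away, near Serpina3f. The 50 kb limit itself separated few sites: the farthest member peak lay 49.6 kb from Lcn2, and the nearest one outside lay 50.9 kb from Orm1, beside Akna.

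**Figure D4:**
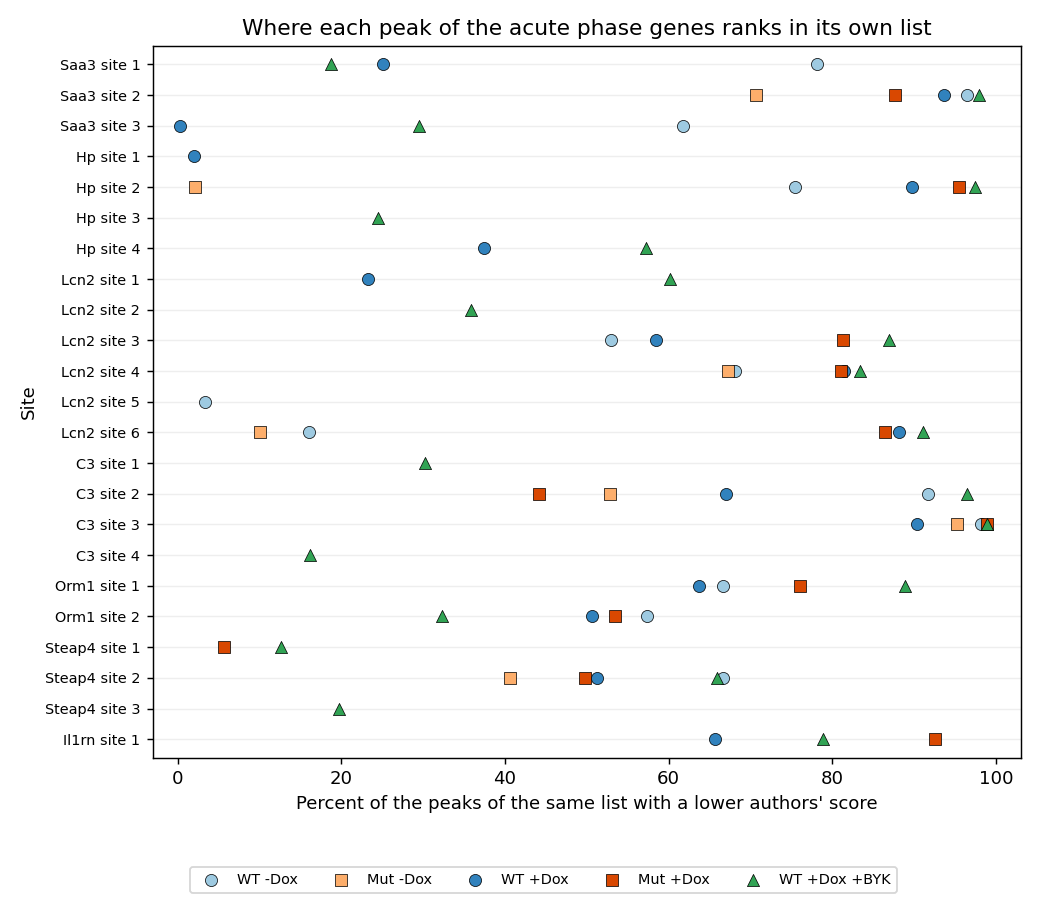
Percent of peaks of the same list with a lower authors' score (horizontal axis) for each peak of the 23 sites (rows), coloured and shaped by list. The sites over an end of a span (Saa3 site 2, Hp site 2, Lcn2 site 1, C3 site 2, Orm1 site 1, Steap4 site 2) have medians of 75.5% (uninduced WT), 46.7% (uninduced mutant), 65.4% (induced WT), 76% (induced mutant) and 92.7% (inhibitor), against 59.6%, 67.2%, 54.5%, 81.3% and 32.3% for the other member sites. In the same order, they rest on 5, 4, 6, 5 and 6 sites over an end and on 8, 3, 10, 7 and 15 others. The sets of sites thus differ between lists.

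Of the 23 sites, 7 (30.4%, 95% Wilson interval 15.6 to 50.9, counting error only) had a peak in all 5 lists, where 21.8% of all sites did. A further 7 (30.4%) had a peak in 1 list only, against 30.7% of all sites. Of these, 5 belonged to the inhibitor list, near C3 (2 sites), Hp, Lcn2 and Steap4 (21.7% of the member sites against 13.1% of all). No member site was found in the induced mutant alone or in the uninduced mutant alone. The share of all sites with these patterns is not given here, so this absence is a description without a background.

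WT cells without and with doxycycline were compared to see which sites accompanied induction of the WT protein. More sites were found at Hp (1 and 3) and Il1rn (0 and 1), which is 2 of the 7 members with a site in either list (35.6% of such genes in the genome). None had fewer (22.0% of such genes), and Saa3, Lcn2, C3, Orm1 and Steap4 had equal numbers. Lcn2 had 4 sites in both, yet its start site carried a peak after induction only, while a site inside Slc25a25 was found before it only. Of the 16 member sites in induced WT, 4 (25.0%) had no peak in uninduced WT, where 34.1% of all induced WT sites had none. Of the 13 in uninduced WT, 1 (7.69%) had no peak in induced WT, against 25.5%. Scores under 100 marked 3 of the 4 sites found after induction only, and with a score of at least 100 required both lists had 11 member sites.

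Induction of the mutant protein went with more sites at 4 of 7 members (72.7% of genes with a site in either list) and fewer at 0 (3.10%). Lcn2 had 2 sites before and 3 after, Orm1 had 0 and 2, Steap4 had 1 and 2 and Il1rn had 0 and 1. Saa3, Hp and C3 had equal numbers of 1, 1 and 2. Of 12 member sites in the induced mutant, 5 (41.7%) had no peak in the uninduced mutant, against 64.5% of all. All 7 member sites of the uninduced mutant were also in the induced mutant, where 8.10% of all uninduced mutant sites were missing. The count of members with more sites thus did not exceed the share among all genes in this longer list.

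Induced WT and mutant cells were compared to ask how sites differ when the induced protein carries mutated PARylation sites. Saa3 (3 in induced WT and 1 in the induced mutant), Hp (3 and 1) and Lcn2 (4 and 3) had fewer sites in the mutant, which is 3 of 7 members where 13.5% of genes with a site in either list had fewer. Steap4 (1 and 2) had more, where 45.1% of such genes did, and C3, Orm1 and Il1rn were equal. The counts at Saa3 and Hp were known from earlier results of these data, so their direction and the shares of sites that follow are a description. Of the 16 member sites in induced WT, 5 (31.2%) had no peak in the induced mutant, against 12.3% of all induced WT sites. Of the 12 in the induced mutant, 1 (8.33%) had none in induced WT, against 39.4%.

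The 5 sites missing from the induced mutant all had low scores in induced WT. They were the start sites of Lcn2 (66.1) and Saa3 (67.8), the Saa3 site near Saa1 (50.2) and the 2 outer sites of Hp (51.2 and 80.7), where the median score of the list was 99.5. They were also the only member sites of induced WT below that median, so 5 of 5 were missing, against 23.1% of all induced WT sites below the median. This measure was chosen after the peaks were seen, and most of the 5 are the Saa3 and Hp sites behind the counts known before. The contrast is thus a description and no test. The high-scoring sites over the ends of Hp and Saa3 were present in both lists. These low scores move with the loss, and their part in it was not tested. The Saa3 sites among the 5 also had no peak in the uninduced mutant, though they stood above 78.1% and 61.8% of the uninduced WT list. The Hp and Lcn2 sites among the 5 had no peak in either uninduced list. With the 6898 highest-scoring peaks of each list, Saa3, Hp and Lcn2 had equal numbers in both, and C3 (2 and 1), Orm1 (2 and 1) and Steap4 (1 and 0) had fewer in the induced mutant. The deficit at Saa3, Hp and Lcn2 therefore held for all peaks and not for lists of equal length.

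The inhibitor comparison addressed PARP activity within WT cells, against the same induced WT list as the mutant comparison. More sites were found with BYK204165 at Lcn2 (4 and 5), C3 (2 and 4) and Steap4 (1 and 3), which is 3 of 7 members (52.3% of genes with a site in either list). None had fewer (8.85%), and Saa3, Hp, Orm1 and Il1rn were equal. Of 21 member sites with the inhibitor, 6 (28.6%) had no peak in induced WT, against 39.7% of all. Of 16 in induced WT, 1 (6.25%), the Hp site inside Dhx38, had none with the inhibitor, against 10.6%. The 6 sites found with the inhibitor scored 58.5 to 81.6, below that list's median of 106. When both lists were cut to 6898 peaks, induced WT had 11 member sites and the inhibitor list 10, so the direction of the sum turned.

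Set side by side over the shared induced WT list, the mutant and the inhibitor lists had 1 and 3 sites at Saa3, 1 and 3 at Hp and 3 and 5 at Lcn2. The start site of Lcn2 and the listed start site of Saa3 lay under a peak with the inhibitor and under none in the induced mutant. C3 had 2 and 4 sites, Steap4 had 2 and 3, and Orm1 and Il1rn had 2 and 1 in both. The share of all genes was not counted for this pair of lists. With the 6898 highest-scoring peaks of each list, Saa3, Hp and Lcn2 had equal numbers of 1, 1 and 3 in both. There C3 had 1 and 2, Steap4 had 0 and 1, and Orm1 and Il1rn had 1 in both.

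The uninduced lines were compared because their lists differ before any doxycycline. The uninduced mutant had fewer sites than uninduced WT at Saa3 (1 and 3), Lcn2 (2 and 4) and Orm1 (0 and 2), which is 3 of 6 members (52.8% of genes with a site in either list). None had more (6.03%), and Hp, C3 and Steap4 were equal at 1, 2 and 1. Of the 13 member sites in uninduced WT, 6 (46.2%) had no peak in the uninduced mutant, against 43.4% of all. Every member site of the uninduced mutant was in uninduced WT, where 10.5% of all uninduced mutant sites were missing. The listed start site of Saa3 had no peak in the uninduced mutant although it stood above 78.1% of the uninduced WT list and above 25.1% of the induced WT list, and it had none in the induced mutant either.

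Lists of related genes were counted in the same way, without a test against the members. Of 21 other acute phase plasma protein genes, 13 had a site (61.0% of all genes) and 5 a peak over an end (7.22%). None had a peak over an end in all 5 lists (1.85%). Of the 13, Saa1, Saa2, Saa4, Orm2 and Orm3 counted sites of Saa3 or Orm1 again, and the second Orm1 site covers an end of Orm2. The fibrinogen genes Fga, Fgb and Fgg, Crp, Apcs, Hamp, A2m and Lbp had no site in any list. Itih3 and Itih4, neighbours that share their sites, had 4 in induced WT and 3 in the induced mutant, and Mt1, a metallothionein gene, had 5 and 4. Cp, which encodes the copper carrier ceruloplasmin, had 2 and 5, and Ptx3, a soluble pattern receptor, 2 and 4. Of these 21 genes, 9 had no site in induced WT or the induced mutant. Of the rest, 8 had fewer sites in the induced mutant than in induced WT and 4 had more. Of all genes with a site in either list, 13.5% had fewer and 45.1% more. Of the 8, Saa1, Saa2 and Saa4 counted the Saa3 sites again, and Mt1 and Mt2 are neighbours, as are Itih3 and Itih4. Among the 4, the neighbours Orm2 and Orm3 each had 2 in induced WT and 3 in the induced mutant, Orm1 sites included. These genes are thus not separate loci, and the 8 and 4 are a description.

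Over all genes, 61.0% had a site and 1.85% a peak over an end in all 5 lists. Of genes with a site in either list, 45.1% had more in the induced mutant than in induced WT and 13.5% had fewer. Of 14 complement genes besides C3, 11 had a site, with more in the induced mutant than in induced WT at 4 and fewer at 2. The 2 were C1ra (3 and 4) and C1s1 (2 and 3), neighbours that encode the first proteases of the pathway. In the Serpina3 cluster 6 of 9 genes had a site, but there were only 4 distinct sites in induced WT. Serpina3a had 3 there, Serpina3b and Serpina3c shared theirs with it, and a single site counted for Serpina3f, Serpina3g and Serpina3i and was found in induced WT alone. Of 10 STEAP and iron genes 9 had a site, with more in the induced mutant than in induced WT at 3 and fewer at 1, Slc11a2 (1 and 2). Hmox1, which encodes haem oxygenase, had 3 in every list and a peak over an end in all 5, the one gene of its list with that feature. Of 18 interleukin 1 and interleukin 6 signalling genes 17 had a site, with more in the induced mutant than in induced WT at 7, fewer at 3 and equal numbers at 7. Il6 and its receptor gene Il6ra had a peak over an end in all 5 lists. Il1r1, the signalling receptor that the product of Il1rn blocks, had 6 sites in induced WT, 14 in the induced mutant and 12 with the inhibitor, and Il1rap, its partner, had 9, 10 and 14. Socs3, a feedback inhibitor, had 8, 8 and 9. The 3 genes with fewer in the induced mutant than in induced WT were Stat3 (2 and 5), Il1a (2 and 3) and Cebpb (0 and 1), and Cebpd had no site.

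Peaks do not measure expression, so the labelled cell type could not be checked by markers. For comparison, sites were found at 5 of 5 preadipocyte marker genes, 2 of 5 hepatocyte genes and 4 of 5 macrophage genes, where 61.0% of all genes had one, and with 5 genes a list these counts set no cell type apart. Alb, Cyp2e1 and Serpina1a, 3 hepatocyte genes, had none in any list.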

How the data were processed

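The data are C/EBPβ ChIP-seq peaks in 3T3-L1 cells, 1 list for each of 5 conditions, made from 20 libraries in 10 groups of 2 (ChIP and input). Bowtie, bedtools and mm10 are named, without versions, per the submitters' processing notes. The deposited files hold peak names beginning with MACS and a score per peak that is the authors' own value. Which version and threshold called the peaks, whether input served as control and how replicates were combined is not given in the sources used here.

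Peaks were read into 1-based coordinates, merged at 1 bp overlap and assigned by peak midpoint to genes within 50 kb, over 21887 protein-coding genes (GRCm38.p6). Assignment was checked on simulated peaks. Promoter letters come from RefSeq. The TATAAA box stood 35 to 16 bases upstream at 305 plus-strand and 298 minus-strand start sites, against 68 and 88 in an equal window farther upstream, so the table's sequences run along the gene. No genome sequence was used, so sites themselves were not searched, and exon, intron and UTR classes were not analysed here.

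No test was run. Intervals are Wilson intervals at 95%. The members and lists were chosen with earlier results of these data known. By rule, all 8 members are named with every site. From the other lists, genes with the most sites or the greatest differences were named, up to 3 each; genes beyond that number, the measure of gene ends and the low-score sites were picked with their values in view. Alternatives changed the overlap, peak width, list length, score, window, assignment and quantity. Python 3.11.15, numpy 2.4.6, scipy 1.17.1 and matplotlib 3.10.9 were used.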

Additional observations from a re-analysis of the deposited data

How the results depend on the processing

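Differences in the summed number of member sites were recomputed under 8 alternatives. In the order WT induction, Mut induction, Mut against WT after induction, inhibitor against WT +Dox and Mut against WT before induction, they were 3, 5, -4, 5 and -6. Requiring an overlap of 100 bp, widening peaks by 250 bp and a window of 100 kb kept every difference within 1.5 times its value and its sign. With 6898 peaks from each list, WT induction gave 0, Mut induction 1 and the inhibitor -1, a turned direction; there Steap4 turned to -1 both on Mut induction and in Mut against WT after induction. With a score of at least 100, WT induction gave 0, Mut against WT after induction -1 and the inhibitor 1. Within 10 kb, Mut induction gave 1, the inhibitor 3 and the uninduced lines -2. With nearest genes only, they were 3 for Mut induction, -2 for Mut against WT after induction, 3 for the inhibitor and -2 for the uninduced lines. In covered kb the 5 differences were 4.46, 6, -2.82, 3.17 and -4.36. Of 40 pairs of gene and comparison, 16 differed in number of sites, 11 to 20 under the alternatives that count sites and 34 in covered kb. Of 280 values of single genes under the alternatives that count sites, 213 stayed within 1.5 times, 65 moved further, to or from 0 included, and 2 turned direction. Covered kb is another unit and is left out of these counts. The 213 include every difference of 0 that stayed 0, and only 16 of the 40 pairs differed to begin with. Serpina3n had no site under any alternative, so its values could not change. The 213 are therefore no measure of how stable the differences are. Score cuts and equal lengths remove weak peaks by construction; other causes were not tested.

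No paired analysis was possible because each condition has 1 peak list without replicate numbers, and for the same reason leaving out a library was not run. Depth per library is unknown, so a missing peak means only that none was listed above the lowest score.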
